A study of Mus musculus with 32 samples.

Results

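The mRNA levels of 9 genes by which the liver sinusoidal endothelium is recognised, *Stab1*, *Stab2*, *Lyve1*, *Clec4g*, *Fcgr2b*, *Gata4*, *Oit3*, *Cd209b* and *Cd36*, were followed through 8 groups of mouse cells. The genes were chosen by name, and every probe that the array files name for one of them was taken, which gave 11 probes of 55681 probes and 9 genes of 31982 gene names. *Stab2* had 3 probes and each other gene 1, and the *Fcgr2b* probe was printed in 10 spots of each array. All animals were Balb/c males of 6 to 8 weeks. Mice with a tumor microenvironment (TME) in the liver received C26 colon carcinoma cells, a murine line, in the spleen, and control mice received PBS. Liver cells were isolated after 14 days with collagenase and density gradients, with adherence as a further step for Kupffer cells, and were cultured for at most 24 h. The groups were control and TME endothelial cells (EC and ET), control and TME Ito cells, the vitamin A-storing stellate cells (IC and IT), control and TME Kupffer cells, the liver's resident macrophages (KC and KT), tumor liver metastasis cells (TM) and colorectal cancer (CRC) primary tumor cells (TP), with 4 samples each.

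The sinusoidal endothelium has open pores and no continuous basement membrane, and it clears waste molecules from blood by endocytosis. Scavenger receptors and lectins on its surface carry out that uptake, and GATA4 is a transcription factor known to keep this endothelium from turning into the closed type of other capillaries. Loss of these genes together with gain of continuous-vessel genes is called capillarization. Several of the genes are also known outside the endothelium, *Stab1* and *Fcgr2b* in macrophages and *Cd36* in macrophages and adipocytes. In bulk samples fewer endothelial cells and less mRNA per endothelial cell cannot be told apart.

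Levels are given as the log2 of the authors' quantile-normalized intensity, so that a difference of 1 is a doubling, and values of different probes are not set against each other because probes bind with unequal strength. Each of 16 arrays held 2 samples. Control and TME samples of the same number shared an array, as did TM and TP samples. The dye was Cy3 for every control and TM sample and Cy5 for every TME and TP sample, with no swap, so a dye effect and a TME effect cannot be told apart. Endothelial and Ito arrays lay on one slide, Kupffer and tumor arrays on the other, so slide and cell type cannot be told apart where endothelial cells are compared with Kupffer or tumor cells.

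The share of spots well above background was between 38.4 and 57.1% per channel, and no spot was saturated. In Ito and Kupffer cells the TME minus control difference of array 4 ran against that of the other 3 arrays (Pearson r across 20094 probes of -0.704 and -0.650), and in each of these 4 channels the nearest neighbour among the channels was one labelled with the other condition. The libraries labelled IC 4, IT 4, KC 4 and KT 4 are therefore named as labelled, and results that rest on them are given with and without them. They were picked out by the differences under test, so a p-value from a fit without them is no independent test. IT 2 and KC 3 lay far from all other channels (SD of the log2 difference from the nearest channel of 1.11 and 0.830, against 0.129 to 0.436 for the other liver cell channels). EC 1 and EC 4, and EC 2 and EC 3, differed by an SD of 0.129 and 0.169, against 0.416 to 0.437 between the pairs, and the noise between repeated spots was 0.071 to 0.112 per channel, so the fits were repeated with each pair averaged.

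The *Stab2* probes lie at 3 places of its locus and are shown because they gave different answers. They are given here as the first 30 bases of each, with the position of the whole probe in mm9 on the minus strand, as the array files annotate it. Probe A_55_P1974028 matched NM_138673 at chr10:86303982-86304041. Probe A_55_P2026487 was assigned to ENSMUST00000099390 at chr10:86455257-86455316. Probe A_55_P2026492 was assigned to ENSMUST00000160580 at chr10:86381487-86381546. The first varied most over all channels and stood for the gene.
A_55_P1974028: taagcaccaaaggcaaggcttcatcccata
A_55_P2026487: tataatgcctgactctgggaacaagcaaac
A_55_P2026492: ggcctctgtcatatgtgacctcacatacat

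The other probes lay, all on the minus strand in mm9, at chr14:31952288-31952347 for *Stab1*, chr7:117994171-117994230 for *Lyve1*, chr8:3716182-3716241 for *Clec4g*, chr1:172890988-172891047 for *Fcgr2b*, chr14:63817858-63817917 for *Gata4*, chr10:58886254-58886313 for *Oit3*, chr8:3921355-3921414 for *Cd209b* and chr5:17288600-17288659 for *Cd36*.

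The 9 genes fell into 3 patterns across the groups. *Clec4g*, *Fcgr2b*, *Gata4* and *Stab1* had their highest mean in EC, with no overlap between EC and the next group in order, and *Oit3* was highest in EC and ET together. For *Gata4* the channel IT 2, at 11.61, lay above all EC channels. *Lyve1* overlapped between endothelial, Ito and Kupffer cells. *Stab2*, at the probe that stands for it, had its highest mean in KT, and EC overlapped IC and KC. *Cd36* was highest in IC, and *Cd209b*, a lectin of the DC-SIGN family, was not well above background in any of the 32 channels, with levels between 2.27 and 3.56. The control Ito and Kupffer cells thus carried 8 of the 9 mRNAs above background, and the endothelial markers *Pecam1* and *Cdh5* were well above background in all 24 liver cell channels. The summed level of 16 general endothelial markers was between 18.13 and 18.64 in EC, 17.64 and 18.14 in IC, and 17.46 and 18.15 in KC, in log2 units, a sum in which the brightest probes weigh most. Gene by gene, 9 of the 16 were higher in EC than in IC and 1, *Mcam*, was lower (median difference 1.58), and against KC 13 were higher and *Mcam* again lower (median 1.96). The share of all probes called in either direction was 9.89% in EC minus IC and 21.0% in EC minus KC. Of 18 Ito markers, 5 were higher in EC than in IC and 0 were lower, and *Lrat*, the retinol-esterifying enzyme that defines these cells, was well above background in 2 of 4 IC channels and 1 of 4 EC channels. How much endothelial RNA in the Ito and Kupffer fractions contributed to the levels was not tested.

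**Figure D1:**
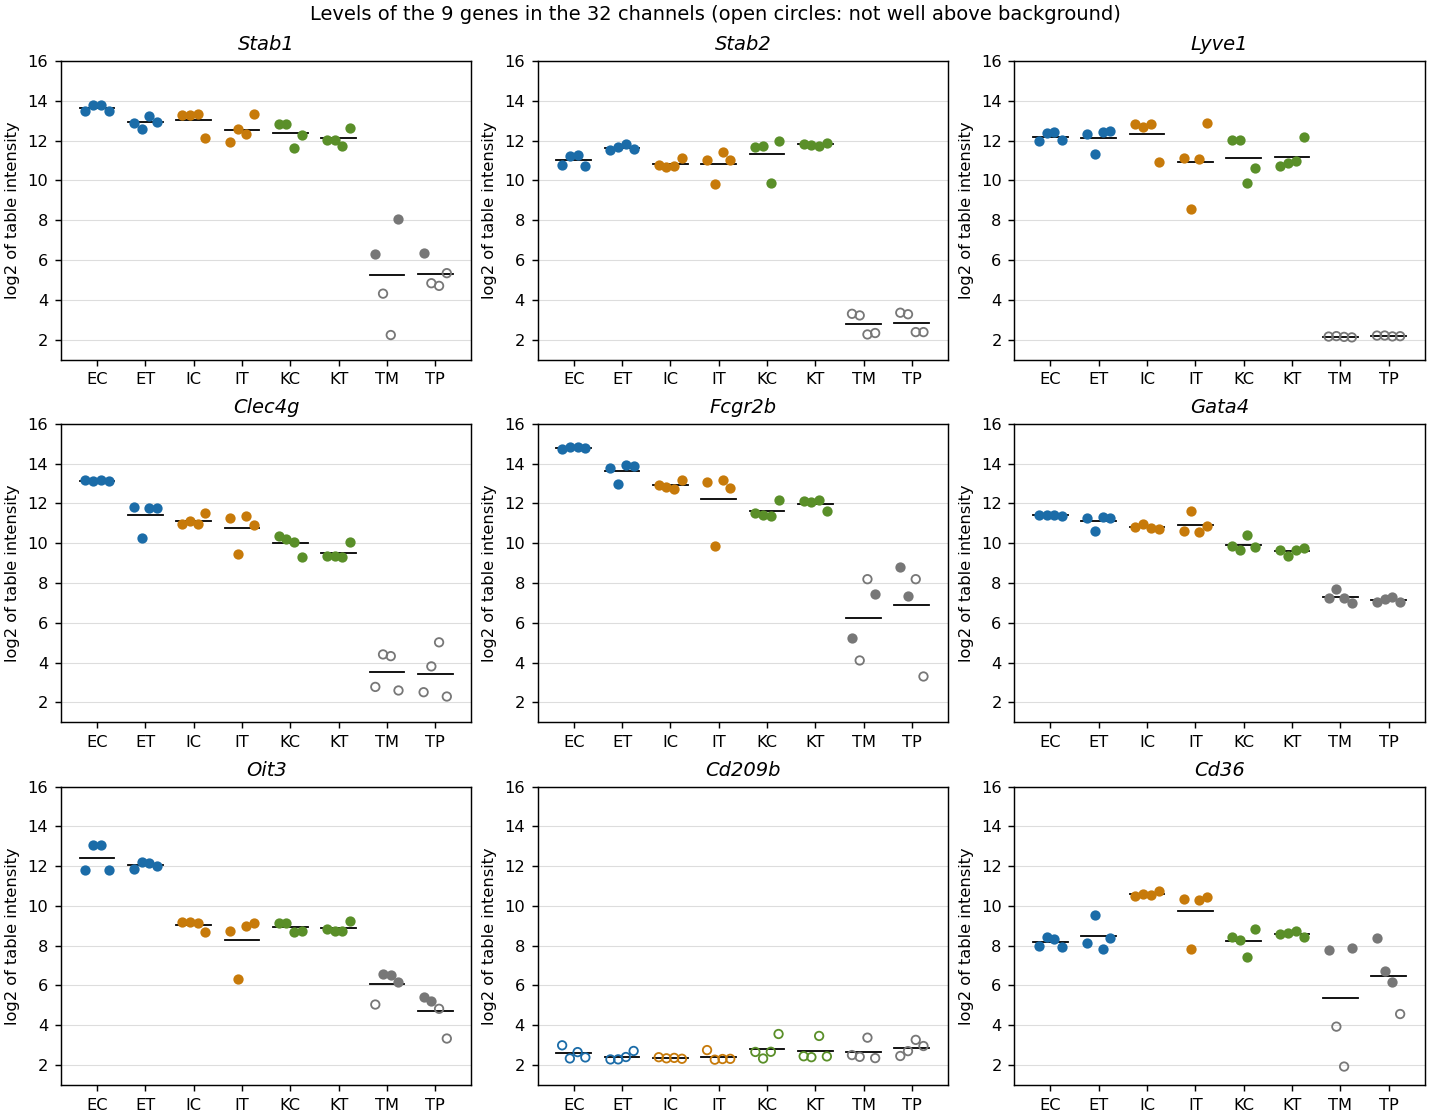
Levels of the 9 genes on the log2 scale in the 4 channels of each group, with a line at the group mean and open circles for channels not well above background. *Oit3* separates EC and ET from every other group, *Clec4g* and *Fcgr2b* are highest in EC, and *Cd209b* is open in all channels.

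*Stab1* and *Stab2* encode stabilin-1 and stabilin-2, large scavenger receptors that take up modified lipoproteins, hyaluronan and breakdown products of matrix. *Stab1* was 13.48, 13.77, 13.81 and 13.47 in EC replicates 1 to 4. It was 12.91, 12.60, 13.23 and 12.96 in ET. All 4 ET channels lay below all 4 EC channels. The difference was -0.71 ± 0.69 (SE, n = 4 and 4, adjusted p = 1.00 by limma in the fit of all 8 groups), with a 95% interval from -2.13 to 0.71. The SE is shared with the tumor channels, in which *Stab1* scattered between 2.23 and 8.08. With only EC and ET in the fit the same difference had an adjusted p of 0.0387 by limma. It was lower on each of the 4 arrays, by 0.57, 1.17, 0.59 and 0.52.

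In Ito cells *Stab1* was 13.29, 13.31, 13.36 and 12.13 in IC replicates 1 to 4 and 11.94, 12.56, 12.33 and 13.32 in IT. On arrays 1 to 3 IT was lower than IC by 1.35, 0.75 and 1.03 on the log2 scale, and on array 4, whose channels are nearest to those of the other label, it was higher by 1.20. In Kupffer cells it was 12.81, 12.82, 11.65 and 12.26 in KC and 12.02, 12.04, 11.74 and 12.65 in KT, with overlapping groups. Neither difference passed limma's test (IT minus IC -0.48 ± 0.69, adjusted p = 0.908; KT minus KC -0.28 ± 0.69, adjusted p = 1.00).

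The *Stab2* probe that stood for the gene was 10.78, 11.23, 11.30 and 10.71 in EC and 11.53, 11.66, 11.85 and 11.58 in ET. Here all ET channels lay above all EC channels, the opposite order to *Stab1*. The difference was 0.65 ± 0.36 (SE, n = 4 and 4), with an interval from -0.09 to 1.39 and an adjusted p of 0.797 by limma. At this probe EC overlapped IC and KC, while ET lay above IT and overlapped KT. It was 10.80, 10.68, 10.74 and 11.13 in IC and 11.83, 11.77, 11.76 and 11.90 in KT, the group with the highest mean, and EC minus KC was -0.31 ± 0.36 (adjusted p = 0.646 by limma).

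The other *Stab2* probes were read at lower intensities and gave another order. A_55_P2026487 was 7.62, 8.10, 7.83 and 7.79 in ET and 4.66, 3.32, 4.85 and 5.19 in IT, with no overlap. In IT this probe was well above background on 1 of 4 arrays, so the ET minus IT difference of 3.33 ± 0.36 (adjusted p = 5.62e-07 by limma) gives no fold. ET was higher than KT by 2.70 ± 0.36 (adjusted p = 3.01e-06 by limma), and EC was higher than IC by 1.28 ± 0.36 (adjusted p = 0.0197). A_55_P2026492 was higher in ET than in KT by 1.71 ± 0.39 (adjusted p = 0.00167 by limma), and its EC minus IC difference of 0.53 ± 0.39 did not pass (adjusted p = 0.503). None of the 3 probes passed in ET minus EC, where their differences were 0.65, 0.91 and 0.30 with adjusted p-values of 0.797, 0.385 and 1.00 by limma. Whether the transcripts assigned to the 3 probes differ between the cell types, or the probes differ in what they bind, was not tested.

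**Figure D2:**
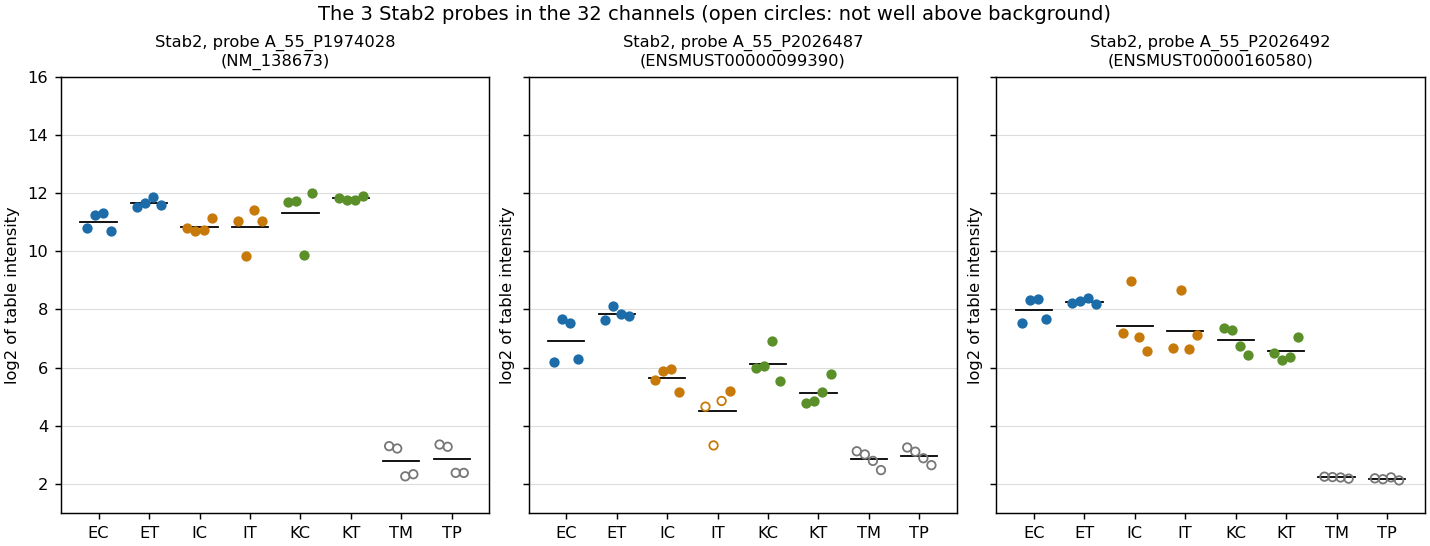
Levels at the 3 *Stab2* probes on the log2 scale in the 4 channels of each group, with a line at the group mean and open circles for channels not well above background. At the first probe EC overlaps IC, IT and KC and ET overlaps KT, and at the second all ET channels lie above all Ito and Kupffer channels.

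*Lyve1* encodes a hyaluronan receptor of sinusoidal and lymphatic endothelium. It was 12.00, 12.37, 12.42 and 12.02 in EC and 12.33, 11.35, 12.42 and 12.49 in ET. The groups overlapped, and the difference was -0.06 ± 0.59 (95% interval -1.27 to 1.16, adjusted p = 1.00 by limma). The intervals of *Stab1*, *Stab2* and *Lyve1* thus include differences of 1 log2 unit in at least one direction.

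*Lyve1* was 12.85, 12.71, 12.84 and 10.93 in IC replicates 1 to 4. It was 11.14, 8.58, 11.08 and 12.90 in IT. IC 4 was the lowest IC channel and IT 4 the highest IT channel, so that the 2 libraries of array 4 made the groups overlap. IT was lower by 1.71, 4.14 and 1.76 on arrays 1 to 3 and higher by 1.97 on array 4. The fit of all 32 channels gave IT minus IC of -1.41 ± 0.59 (adjusted p = 0.434 by limma). Without array 4 of Ito and Kupffer cells *Lyve1* was lower in IT by 2.54 on the log2 scale (3 IC and 3 IT channels, adjusted p = 0.00326 by limma). Without IT 2 and KC 3 as well it was lower by 1.69 (3 IC and 2 IT channels, adjusted p = 3.36e-05 by limma). Array 4 was left out because its differences ran against the other arrays, so these p-values are no independent test of the change in Ito cells. The library labelled IT 2, the channel far from its group, was the lowest for *Lyve1*.

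In Kupffer cells *Lyve1* was 12.02, 12.02, 9.86 and 10.65 in KC and 10.73, 10.88, 10.98 and 12.20 in KT. The groups overlapped, and KT minus KC was 0.06 ± 0.59 (adjusted p = 1.00 by limma). Without the 6 channels (array 4 of Ito and Kupffer cells, IT 2 and KC 3) the difference was -1.16 (adjusted p = 0.00369 by limma), which turned its direction and rested on 2 KC and 3 KT channels. The test of the change in endothelial against Ito cells gave 1.35 ± 0.84 for *Lyve1* (adjusted p = 1.00 by limma) in all channels, 2.48 without array 4 (adjusted p = 0.0675) and 1.63 without the 6 channels (adjusted p = 0.00127). ET minus IT of *Lyve1* was 1.22 ± 0.59 (adjusted p = 0.242 by limma) in all channels and 1.88 without array 4 (adjusted p = 0.0143).

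The endothelial lectin *Clec4g* (LSECtin) binds glycans of viruses and of leukocytes. It was 13.15, 13.11, 13.18 and 13.13 in EC. In ET it was 11.84, 10.25, 11.79 and 11.78, and in IC 10.96, 11.10, 10.97 and 11.52. EC stood above every other channel of the series, and ET overlapped IC. *Clec4g* was 10.38, 10.19, 10.08 and 9.31 in KC and 9.35, 9.37, 9.30 and 10.06 in KT.

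*Clec4g* was higher in EC than in IC by 2.01 ± 0.51 (4.01-fold, n = 4 and 4, adjusted p = 0.00976 by limma), higher in EC than in KC by 3.16 ± 0.51 (8.91-fold, adjusted p = 3.98e-05) and higher in ET than in KT by 1.89 ± 0.51 (3.71-fold, adjusted p = 0.00674). ET minus IT was 0.66 ± 0.51 (adjusted p = 0.523 by limma). The EC minus IC call was lost without replicate 1, without replicate 3 and when the EC pairs were averaged (adjusted p = 0.0891, 0.0532 and 0.0848 by limma), at differences of 1.94, 1.94 and 2.01. The ET minus KT call was lost without replicate 1 (1.69, adjusted p = 0.0841).

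Among the 9 genes *Clec4g* had the largest difference between TME and control endothelial cells. ET was lower on each array, by 1.32, 2.86, 1.40 and 1.36, and the mean difference was -1.73 ± 0.51 (95% interval -2.77 to -0.69). That is a 3.32-fold lower level, which did not pass limma's test over all probes in the fit of 8 groups (adjusted p = 0.115). Over 17 alternatives the difference was between -1.87 and -1.34 and the adjusted p between 0.00103 and 0.613 by limma or, for 1 of them, the methods' t-test. It passed with the 24 liver cell channels only (adjusted p = 0.0194, the 1 gene of the 9 called in that fit against 1.51% of all probes) and with EC and ET only (adjusted p = 0.0345). ET 2 was the lowest ET channel, and without it the difference was -1.34 (adjusted p = 0.419 by limma).

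*Fcgr2b* encodes an inhibitory IgG receptor that clears small immune complexes in the sinusoid. It was 14.74, 14.85, 14.84 and 14.78 in EC and 13.80, 12.98, 13.91 and 13.89 in ET, with no overlap. It was 12.91, 12.84, 12.74 and 13.16 in IC and 11.52, 11.40, 11.36 and 12.16 in KC. The order of these means was EC, ET, IC and KC, and EC stood above every channel of the other groups.

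EC was higher than KC for *Fcgr2b* by 3.19 ± 0.86 (9.13-fold, adjusted p = 0.00766 by limma). EC minus IC was 1.89 ± 0.86 (adjusted p = 0.200), and ET minus EC was -1.16 ± 0.86 (95% interval -2.92 to 0.61, adjusted p = 1.00). ET was lower than EC on each array, by 0.94, 1.87, 0.93 and 0.89. With EC and ET only the adjusted p was 0.0217 by limma. The EC minus KC call was lost without replicate 1, without replicate 3 and with the EC pairs averaged (adjusted p = 0.0567, 0.0559 and 0.0570 by limma), at differences of 3.18, 3.09 and 3.19.

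The wide SE of *Fcgr2b* came with tumor channels between 3.30 and 8.82. In the table of all probes a probe with 10 spots carries the value of its first spot. This was read over 399 such probes, with spot signals first brought to the table's scale through the probes of a single spot. The median absolute difference from the table was then 0.00 for the first spot and 0.0860 log2 units for the mean of 10 spots. In TM 3 and TP 3 the table gave 8.19 and 8.19, where the first spot was read at 8.05 and 8.08 and the median of the other 9 spots at 2.28 and 4.08. In the 24 liver cell channels all 10 spots were well above background. With the spots averaged, ET minus EC of *Fcgr2b* was -1.14 (adjusted p = 1.00 by limma).

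Promoters of 6 of the 9 genes were in the RefSeq table of mouse promoters (GRCm38.p6), those of *Lyve1*, *Gata4* and *Oit3* not being among them. The *Clec4g* and *Fcgr2b* promoters are shown because these genes were the most closely correlated of the 8 above background across the liver cell channels, with 250 bases before and 50 from the gene start on, and with a GATA-type hexamer (AGATAA or AGATAG or TGATAA or TGATAG, searched on both strands) in capitals. Both lie on the minus strand, at chr8:3720602-3720901 and chr1:170976022-170976321. Of the 6 promoters 3 held such a hexamer, as did 29.8% of 32851 mouse promoters of the same length. A match describes letters only.
Clec4g: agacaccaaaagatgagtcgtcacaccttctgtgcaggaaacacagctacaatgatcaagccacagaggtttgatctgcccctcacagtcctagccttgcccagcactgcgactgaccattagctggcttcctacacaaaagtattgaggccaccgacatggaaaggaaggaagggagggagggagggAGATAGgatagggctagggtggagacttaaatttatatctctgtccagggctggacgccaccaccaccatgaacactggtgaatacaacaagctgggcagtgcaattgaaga
Fcgr2b: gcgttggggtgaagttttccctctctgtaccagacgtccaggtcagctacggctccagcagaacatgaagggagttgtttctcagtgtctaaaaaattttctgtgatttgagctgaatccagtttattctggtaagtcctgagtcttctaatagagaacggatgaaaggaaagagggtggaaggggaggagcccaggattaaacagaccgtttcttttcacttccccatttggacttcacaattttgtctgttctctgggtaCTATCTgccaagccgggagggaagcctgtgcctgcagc

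*Gata4* was 11.41, 11.39, 11.40 and 11.37 in EC and 11.24, 10.63, 11.32 and 11.28 in ET. All ET channels were below all EC channels, by 0.17, 0.76, 0.09 and 0.09 on the 4 arrays, so that ET 2 stood apart from the other ET channels. The mean difference was -0.28 ± 0.20 (95% interval -0.68 to 0.12, adjusted p = 0.998 by limma), and without ET 2 it was -0.12. *Gata4* was 9.84, 9.64, 10.42 and 9.79 in KC and 9.67, 9.36, 9.66 and 9.75 in KT. EC was higher than KC by 1.47 ± 0.20 (2.77-fold, adjusted p = 3.39e-06 by limma), and ET was higher than KT by 1.51 ± 0.20 (2.84-fold, adjusted p = 2.24e-06). EC minus IC was 0.59 ± 0.20 (adjusted p = 0.0554 by limma). *Gata4* was 10.81, 10.98, 10.75 and 10.69 in IC and 10.63, 11.61, 10.56 and 10.85 in IT, where IT 2 lay above every EC channel.

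*Oit3* encodes a secreted protein with a zona pellucida domain, known in liver. It was 11.80, 13.05, 13.05 and 11.79 in EC and 11.84, 12.18, 12.14 and 12.00 in ET. The EC values fell into the same pairs as the whole EC profiles, and the ET values lay between them. In IC *Oit3* was 9.19, 9.17, 9.13 and 8.69, and in KC 9.14, 9.16, 8.70 and 8.74. No Ito or Kupffer channel exceeded 9.23.

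EC was higher than IC for *Oit3* by 3.38 ± 0.48 (10.4-fold, adjusted p = 2.74e-05 by limma), and ET was higher than IT by 3.75 ± 0.48 (13.5-fold, adjusted p = 7.12e-06). The library IT 2 was 6.30, against 8.73, 8.98 and 9.15 in IT 1, IT 3 and IT 4, so the size of ET minus IT rests partly on 1 library. EC was higher than KC by 3.48 ± 0.48 (11.2-fold, adjusted p = 5.75e-06), and ET was higher than KT by 3.15 ± 0.48 (8.88-fold, adjusted p = 1.96e-05). *Oit3* was the one gene of the 9 that passed in all 4 comparisons of endothelial with other liver cells. ET minus EC was -0.38 ± 0.48 (95% interval -1.37 to 0.61, adjusted p = 1.00 by limma).

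*Cd36*, a receptor for long-chain fatty acids and oxidised lipoproteins, was 7.96, 8.45, 8.35 and 7.93 in EC and 8.16, 9.55, 7.83 and 8.37 in ET. In IC it was 10.51, 10.61, 10.56 and 10.76, above every EC channel. In IT it was 10.35, 7.82, 10.27 and 10.46, where the library IT 2 lay apart. EC minus IC was -2.44 ± 0.90 (5.42-fold lower in EC, adjusted p = 0.0931 by limma in the fit of 8 groups, 0.00104 in the fit of the 24 liver cell channels). In KC *Cd36* was 8.42, 8.28, 7.45 and 8.83, overlapping EC.

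**Figure D3:**
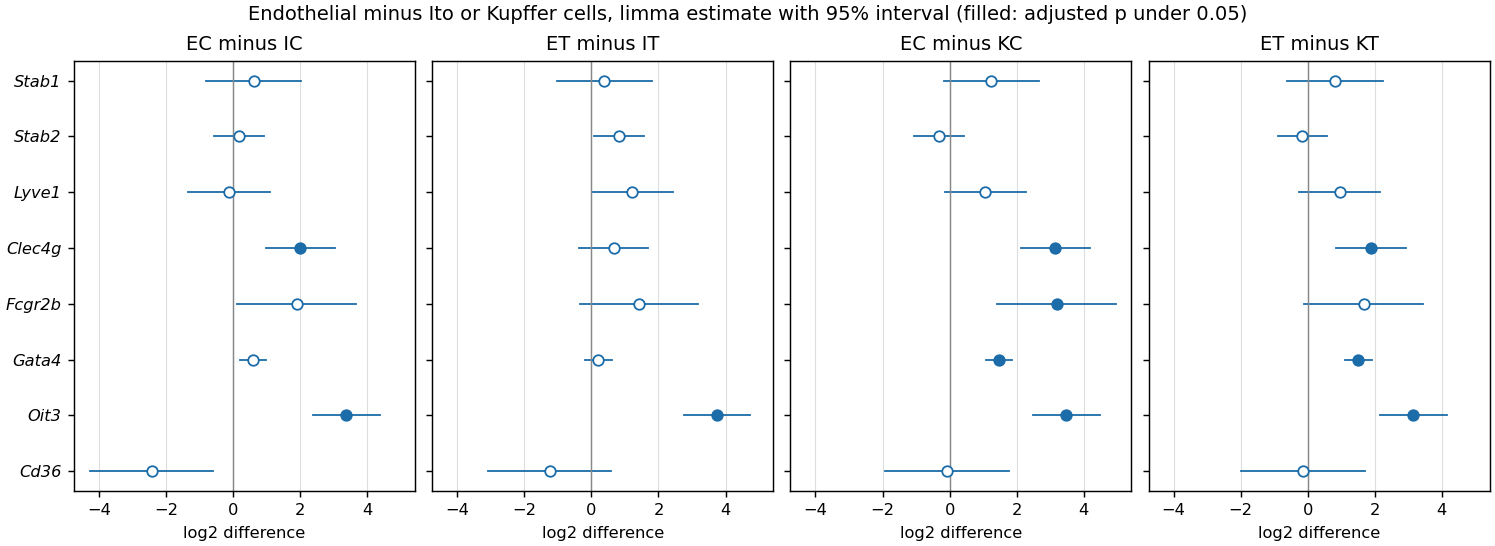
Difference of endothelial from Ito or Kupffer cells on the log2 scale for the 8 genes above background, as the limma estimate with its 95% interval, filled where the adjusted p was under 0.05. *Oit3* is filled in all 4 panels, and *Cd36* lies left of 0 against Ito cells.

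Counted over the genes, 2 of 9 were called (adjusted p under 0.05 by limma) in EC minus IC, *Clec4g* and *Oit3*, against 9.89% of all probes, and 1 of 9 in ET minus IT, *Oit3*, against 8.26%. In EC minus KC 4 of 9 were called, *Clec4g*, *Fcgr2b*, *Gata4* and *Oit3*, against 21.0% of all probes, and in ET minus KT 3 of 9, *Clec4g*, *Gata4* and *Oit3*, against 21.8%. Each was higher in endothelial cells. Without the 6 channels (array 4 of Ito and Kupffer cells, IT 2 and KC 3) *Lyve1* (-0.60, lower in EC) and *Gata4* (0.55) were called as well in EC minus IC (4 of 9 against 17.5% of all probes by limma). *Lyve1*, higher in ET, was then called as well in ET minus IT (1.04, 2 of 9 against 16.1%) and in ET minus KT (1.28, 4 of 9 against 27.3%). In EC minus KC the same 4 genes were called (against 22.9%). No test set the 9 genes against the other probes. The median difference of the 9 genes was 0.59 in EC minus IC and 1.25 in EC minus KC, where that of all probes was -0.01 and 0.00. The 4 EC channels did not overlap the 4 IC channels for 6 of the 9 genes, against 21.7% of all probes, and did not overlap the KC channels for 5, against 28.4%. ET did not overlap IT for 2 of the 9 genes, against 16.0% of all probes, and KT for 4, against 36.2%.

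In ET minus EC 0 of 9 genes were called, against 1.14% of all probes by limma, and *Clec4g* was the 1 gene with an unadjusted p under 0.05. The groups did not overlap for 5 genes, *Stab1*, *Clec4g*, *Fcgr2b* and *Gata4* lower and *Stab2* higher in ET, against 13.0% of all probes. For *Stab2* this held at the probe that stood for the gene, while ET overlapped EC at A_55_P2026487 and A_55_P2026492. For each of these 5 genes the exact two-sided permutation test gave p = 0.0286, the smallest that 4 against 4 channels allow, before any correction for the number of genes. This p takes the 4 EC channels as independent samples, and EC 1 and EC 4, like EC 2 and EC 3, differed by little more than the noise between spots. The median difference of the 9 genes was -0.28, and that of all probes 0.01. With only EC and ET in the fit 3 genes were called by limma, *Stab1*, *Clec4g* and *Fcgr2b*, against 5.29% of all probes.

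In IT minus IC 0 of 9 genes were called against 0.289% of all probes by limma, with *Lyve1* alone at an unadjusted p under 0.05, and the groups did not overlap for *Cd36* alone, against 8.92%. *Lyve1* was the 1 gene of the 9 called without array 4, against 7.66% of all probes, and without the 6 channels, against 12.3%. In KT minus KC *Lyve1* alone was called without the 6 channels, against 4.86% of all probes, and in all channels 0 of 9 were called against 0.436%, with 0 genes at an unadjusted p under 0.05 and 0 of 9 without overlap, against 7.06%. The change in endothelial cells did not pass as different from that in Ito or Kupffer cells for any of the 9 genes (0 of 9 against 0.111% and 0.0808% of all probes, and 0 of 9 at an unadjusted p under 0.05 in both). For *Clec4g* the difference from the Ito change was -1.34 ± 0.71 and from the Kupffer change -1.27 ± 0.71 (both adjusted p = 1.00 by limma).

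**Figure D4:**
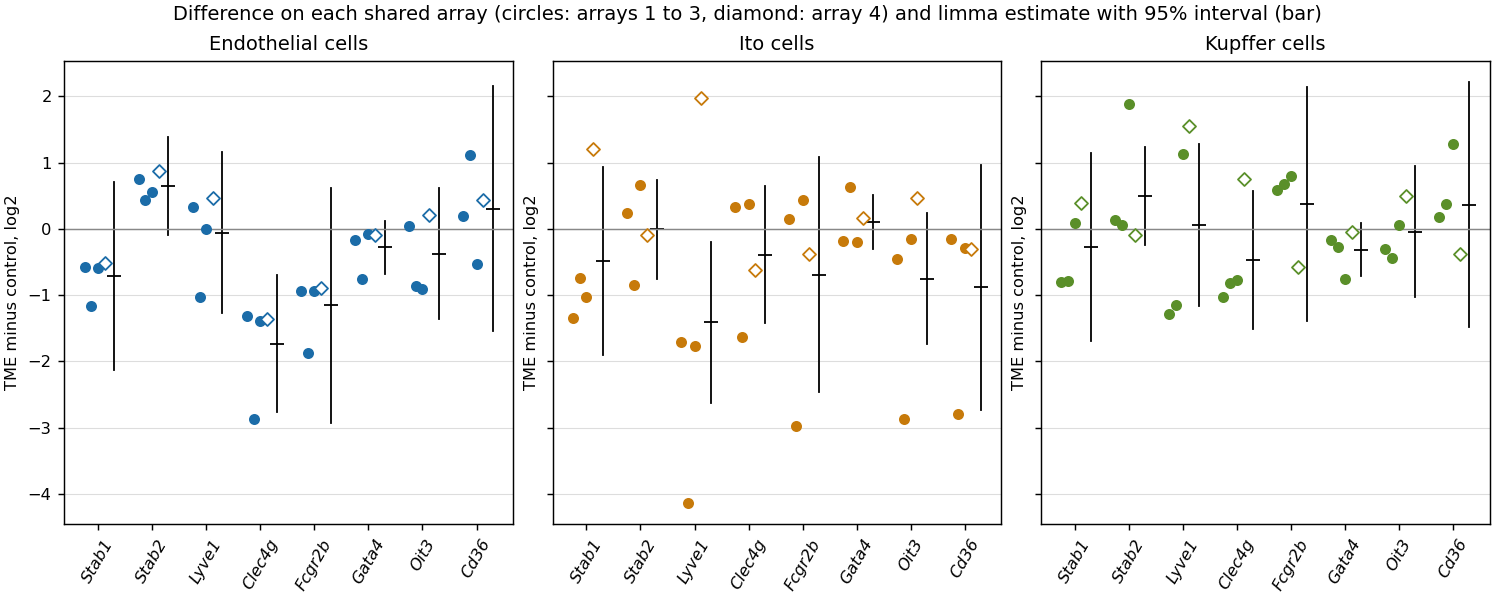
TME minus control difference on the log2 scale of the 8 genes above background on each shared array (circles for arrays 1 to 3, a diamond for array 4) with the limma estimate and its 95% interval (bar). In endothelial cells the 4 arrays lie below 0 for *Stab1*, *Clec4g*, *Fcgr2b* and *Gata4* and above 0 for *Stab2*, and in Ito cells the *Lyve1* diamond at 1.97 opposes the other arrays.

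Tumor cells had lower levels than liver cells for 8 of the 9 genes. *Stab2*, *Lyve1* and *Clec4g* were not well above background in any of the 8 TM and TP channels. The mean of the 24 liver cell channels was at least 28.0-fold, 40.5-fold and 21.0-fold higher. It was measured against the lowest signal well above background after normexp, loess and Aquantile normalization. These bounds hold for the mean and not for each liver cell channel. The *Stab2* probes A_55_P2026487 and A_55_P2026492, also not well above background there, gave bounds of 1.56-fold and 2.74-fold. Liver and tumor channels each held both dyes in equal number. *Gata4* was well above background in all 8 tumor channels, at 6.97 to 7.69, and was higher in liver cells by 3.42 ± 0.11 (adjusted p = 1.05e-19 by limma). *Stab1* was well above background in 3 of 8 tumor channels, *Fcgr2b* with all its spots in 4, and *Oit3* and *Cd36* in 5 each.

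*Oit3* was higher in liver cells than in tumor cells by 4.55 ± 0.28 (adjusted p = 5.71e-14 by limma) and *Cd36* by 3.05 ± 0.52 (adjusted p = 1.24e-05). With 3 of 8 tumor channels not well above background these sizes depend on how dim spots are treated, and after normexp, loess and Aquantile normalization they were 3.33 and 1.77 (adjusted p = 2.50e-15 and 1.80e-06 by limma). In all, 8 of 9 genes were called higher in liver cells, against 54.6% of all probes called and 20.6% called higher, and *Cd209b* was not called (-0.21 ± 0.15, adjusted p = 0.247). Between TP and TM 0 of 9 were called by limma, against 3.01% of all probes, and *Oit3* was the 1 gene with an unadjusted p under 0.05 (-1.37 ± 0.48, adjusted p = 0.127).

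Across the 24 liver cell channels *Clec4g* and *Fcgr2b* had a Pearson r of 0.89, *Fcgr2b* and *Oit3* of 0.85, *Clec4g* and *Gata4* of 0.76, and *Stab1* and *Lyve1* of 0.73. *Stab2* had r between -0.53 and 0.28 and *Cd36* between -0.29 and 0.28 with the other genes. These values describe channels that share arrays, slides, dyes and cell types, and they carry no p. Without the 6 channels that stand apart or go against their labels the first 4 were 0.92, 0.83, 0.91 and 0.85 over 18 channels, and *Stab2* had r between -0.54 and -0.03.

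**Figure D5:**
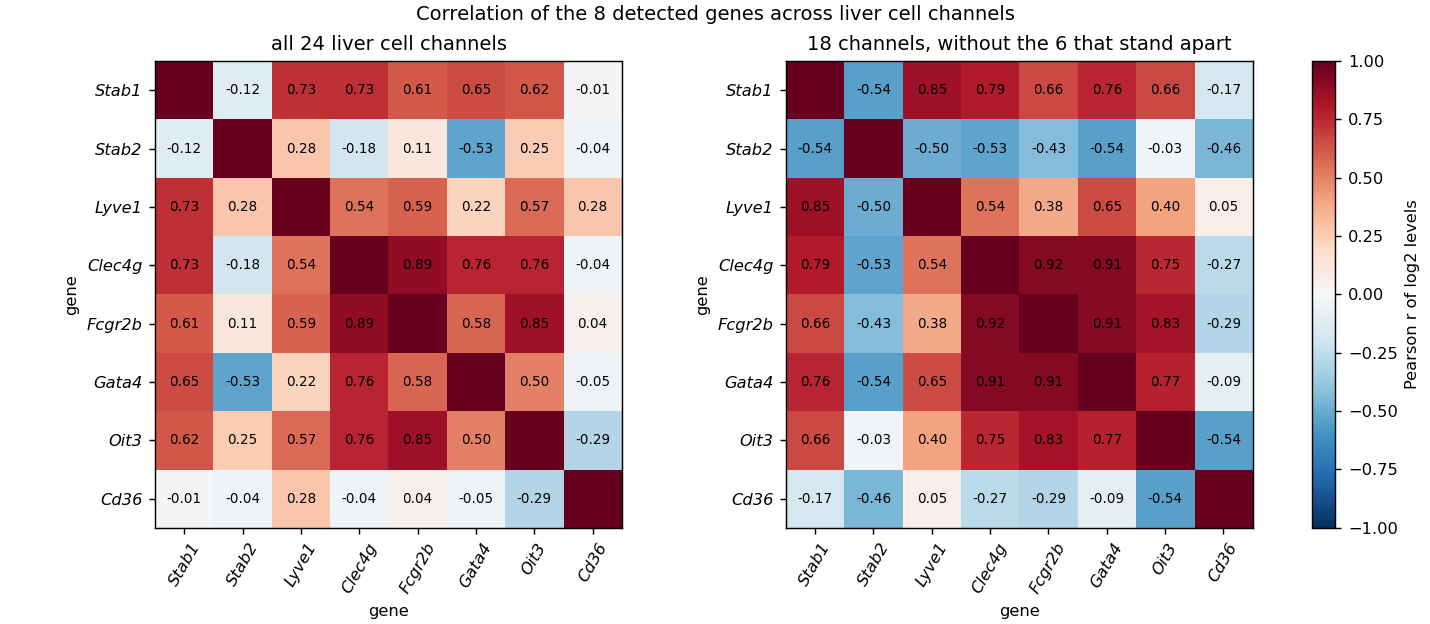
Pearson r of the log2 levels between the 8 genes above background, over all 24 liver cell channels (left) and over the 18 channels without array 4 of Ito and Kupffer cells, IT 2 and KC 3 (right). *Clec4g*, *Fcgr2b*, *Gata4* and *Oit3* correlate positively in both, and *Stab2* and *Cd36* stand apart.

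The mean profile of the 8 genes above background was most like that of *Pecam1*, an adhesion molecule of endothelial junctions, and of *Tspan7* (r = 0.961 each over the 24 liver cell channels, among 27830 probes). They were followed by *Zfp521* (0.957), *Myct1* (0.954), *Larp7* (0.953), *Gng12*, *Man1a* and *Tmem64* (0.950 each), a probe for an unnamed transcript of chromosome 13 (0.949) and *Pcdhb10* (0.946).

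The median EC minus IC difference of 15 further genes of the sinusoidal endothelium was 0.87. Of them 5 were called higher in EC and 0 lower, against 9.89% of all probes called. They were *Nr2f2*, an orphan nuclear receptor of venous identity (2.35, adjusted p = 3.36e-10 by limma), *Dnase1l3*, a secreted nuclease (2.93), *Kdr*, the VEGF-A receptor (2.60), *Gpr182* (3.91) and *Flt4*, the VEGF-C receptor (2.62). *Mrc1*, the mannose receptor of endothelial cells and macrophages, had an EC minus IC difference of 2.08 (adjusted p = 0.281 by limma). In ET minus EC 1 of the 15 passed, *Clec1b*, a C-type lectin (-1.87, adjusted p = 0.0136 by limma), and the median was -0.64. Of 16 general endothelial genes 1 fell in ET, *Sox18*, a transcription factor (-2.35, adjusted p = 0.000172), and the median was -0.62. *Pecam1* and *Cdh5* differed by -0.16 and -0.35 (both adjusted p = 1.00). Among all probes 1.14% were called in ET minus EC.

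Of 14 genes of vessels with a continuous endothelium 5 were called higher in ET and 0 lower, against 1.14% of all probes called, with a median difference of 1.20. They were *Cav1*, the coat protein of caveolae (2.37, adjusted p = 0.000875 by limma), *Apln*, the apelin ligand (2.63, adjusted p = 0.0485), *Vwf*, von Willebrand factor (1.80, adjusted p = 0.0349), *Podxl* (1.21, adjusted p = 0.0231) and *Sox17* (1.20, adjusted p = 0.0408). *Cd34* differed by 1.20 (adjusted p = 0.234 by limma). In TM and TP the mean of *Cav1* was 10.71 and 10.03, above ET at 8.39. That of *Cd34* was 14.87 and 15.55, above ET at 11.01. For *Apln* it was 9.68 and 9.63, above EC at 7.68 and below ET at 10.31. *Podxl* and *Sox17* were not well above background in any tumor channel. *Vwf* had a mean of 8.11 in KC and 7.26 in ET. The part of other cells' RNA in these differences was not tested. *Selp*, *Ly6c1* and *Plvap* were lower in ET without passing (-0.63, -0.32 and -0.22). No fit with the EC pairs averaged is given here for these genes. In the same comparison 0 of 9 sinusoidal genes passed by limma, and the 2 lists were not tested against each other. The lists were chosen with earlier results of these data known. The paper already names *Apln* as falling from TME endothelial to Kupffer to Ito cells on these arrays. The count of called genes is therefore no independent test.

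Markers of other cells moved with the same comparisons. In ET minus EC 3 of 14 hepatocyte genes fell, *Ttr*, *Cyp2e1* and *Cyp3a11* (-1.88, -2.72 and -3.63), at a median of -0.46 for the list. Among all probes 1.14% were called in this comparison. The summed level of 8 neutrophil genes was between 10.01 and 10.53 in EC and 11.95 and 13.04 in ET, 0 of the 8 passed, and *S100a8* and *S100a9* differed by 3.27 and 3.12 (adjusted p = 0.0590 and 0.418 by limma). Of 15 Kupffer genes 0 passed, at a summed level of 16.01 to 16.43 in EC and 16.40 to 16.98 in ET, and of 18 Ito genes 0 passed at a median of -0.46. Of 9 tumor epithelium, 5 erythroid and 8 lymphocyte genes 0 passed, at medians of -0.20, -0.08 and -0.27. The tumor epithelium list did not set tumor cells apart here. Its summed level was 11.78 to 13.27 in TM, 10.63 to 13.17 in TP and 12.67 to 12.74 in EC. Its median liver minus tumor difference was 0.03, so it cannot show whether ET held tumor RNA.

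In EC minus IC 11 of 14 hepatocyte genes were lower in EC, with a median difference of -2.86, and the summed level was 14.61 to 14.88 in EC and 16.90 to 19.06 in IC. Among all probes 9.89% were called in this comparison. Of 15 Kupffer genes 6 were lower in EC, among them *Slc40a1* (-3.19), *Marco* (-2.69), *Cd68* (-2.09) and *Clec4f* (-1.98), while *Vsig4* differed by -1.97 (adjusted p = 0.162 by limma). Of 5 erythroid genes 3 were lower in EC, among them *Hbb-b1* and *Hba-a1* (-4.32 and -4.22). In EC minus KC 8 of 15 Kupffer genes were lower in EC and 0 higher, where 21.0% of all probes were called. The part of these cells' RNA in the differences of the sinusoidal genes was not tested.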

How the data were processed

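The authors scanned Agilent 2-colour arrays, extracted the spots with Feature Extraction 10.7.3.1 and quantile normalized the values, per the study's methods. They deposited the scanner intensities of each spot and a table of linear intensities per probe and sample, which correlated with the scanner's own channel at r between 0.995 and 1.00 and supplied all levels here as log2. Genes are named and mapped (mm9) by the array files. The members and the gene lists were chosen with earlier results of these data known. All 9 genes are reported, each by the probe of highest variance, with the 10 genes of most like profile and, from each list of marker genes, at most the first 2 and 4 called genes of largest difference in ET minus EC or EC minus IC. *Nr2f2*, *Clec1b*, *Podxl*, *Sox17*, *Selp*, *Ly6c1*, *Plvap*, *Ttr*, *Cyp2e1* and *Mcam* fall outside this rule and were named after their values were seen.

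Groups came from the sample labels. Differences were tested with limma 3.58.1 in R 4.3.3 (lmFit and eBayes, 1 fit of 32 channels to 8 group means, Benjamini-Hochberg adjustment over 55681 probes, threshold 0.05), with 95% intervals and, for single probes, exact two-sided permutation of 4 against 4 channels. The scripts were tested on simulated data. The methods call the 4 samples of a group biological replicates. The limma p-values rest on the spread within groups, pooled for each probe over all groups of the fit. In the fit of 32 channels that spread includes the tumor groups, so it is not the spread of the groups compared alone. EC channels of the same pair differed by little more than the noise between spots. Whether the 4 EC channels are independent samples was not tested. The number of arrays limits the precision.

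Alternatives were the averaged spots of the scanner signal, normexp (offset 50) with quantile or with loess and Aquantile, scaling to the 75th percentile, a filter on dim probes, only the groups compared, the array as a block, the methods' t-test, their stricter thresholds (0.001 and 4-fold), the probe with the highest mean and each replicate left out. Added after seeing the data were fits without the doubtful channels, without ET 2, with the EC pairs averaged and with the 24 liver cell channels only. The deviations of same-numbered channels of an array from their group means correlated at -0.681 to 0.404. All endothelial arrays were positive (0.056 to 0.404), and array 4 of Ito and Kupffer cells gave -0.681 and -0.623. The numbers were not taken to pair the samples, and the array entered as a block in an alternative only.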

Additional observations from a re-analysis of the deposited data

Results flagged for a closer look

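In 16 of 72 sets of 4 channels 1 channel lay far from the others by Dixon's criterion, which chance meets in about 1 set in 20. ET 2 was low for *Lyve1* (11.35), *Clec4g* (10.25), *Fcgr2b* (12.98) and *Gata4* (10.63). IT 2 was low for *Fcgr2b* (9.88), *Oit3* (6.30) and *Cd36* (7.82). The library labelled IC 4 was low for *Stab1* (12.13), *Lyve1* (10.92) and *Oit3* (8.69). The library labelled KT 4 was high for *Clec4g* (10.06) and low for *Fcgr2b* (11.59). KC 3 was low for *Stab2* (9.87). For *Cd209b*, which was not well above background in any channel, IT 1 (2.75), KT 3 (3.46) and TM 3 (3.38) were high.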

How the results depend on the processing

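The number of the 9 genes called in ET minus EC (0) was 1 with the 24 liver cell channels only, with 75th percentile scaling, with normexp and quantile and with normexp, loess and Aquantile (*Clec4g* in each), and 3 with only the groups compared. In IT minus IC (0) it was 1 without array 4 of Ito and Kupffer cells, 1 without the 6 doubtful channels and 0 to 1 with each replicate left out (*Lyve1*). In KT minus KC (0) it was 1 without the 6 channels, where *Lyve1* reversed from 0.06 to -1.16, and its difference was -0.44 to 0.51 with each replicate left out. In EC minus IC (2) it was 1 at the stricter thresholds and with the EC pairs averaged, 4 with the 24 liver cell channels only, the filter on dim probes, normexp and quantile and without the 6 channels, 5 with normexp, loess and Aquantile, only the groups compared and the methods' t-test, and 1 to 3 with each replicate left out. *Gata4* was called there as well without ET 2. In ET minus IT (1) it was 2 without array 4 and without the 6 channels, and 1 to 2 with each replicate left out. In EC minus KC (4) it was 2 at the stricter thresholds, 3 with the EC pairs averaged, 3 to 4 with each replicate left out (3 without replicate 1 and without replicate 3), and 5 with the 24 liver cell channels only, normexp and quantile, normexp, loess and Aquantile, only the groups compared and the methods' t-test. In ET minus KT (3) it was 1 at the stricter thresholds, 4 with the 24 liver cell channels only (*Fcgr2b* as well) and without the 6 channels (*Lyve1* as well), and 5 with only the groups compared and with the methods' t-test. *Fcgr2b* was also called there with normexp and quantile and with normexp, loess and Aquantile, and *Clec4g* was not called without replicate 1. In TP minus TM (0) and in the endothelial minus Ito change (0) it was 1 without the 6 channels. The causes were not tested. With the array as a random replicate block (correlation 0.0783) *Clec4g* in ET minus EC had a difference of -1.73 (adjusted p = 0.0757 by limma), and the block changed 0 of 99 calls. The spots averaged from the scanner changed 0 of 99. The tumor channels, near background for most of the genes, limit what can be said of levels there.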
